A study of Mus musculus with 4 samples.

Results

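Amacrine cells, the inhibitory interneurons of the inner retina, were described from the AC column of a deposited table that counts long-read transcript isoforms in 6 retinal cell classes. Isoform counts were summed per gene and scaled to a column total of 1000000 counts (CPM), and a gene was included when it had at least 100 AC counts, which is 2.07 CPM. Of 16702 gene identifiers in the table, 7136 (42.7%) were included, 7267 had 1 to 99 AC counts and 2299 had none. The included genes comprised 6832 Ensembl genes and 304 loci named by their position, and they held 99.5% of the AC counts. The other 5 columns, for bipolar cells, cones, Müller glia, rods and retinal ganglion cells, gave the comparison, as the mean of their CPM.

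The series asked which transcript isoforms the cell classes of the mouse retina use. It comprised 4 single-cell libraries from papain-dissociated retinas (C57BL6/J strain, wild-type males), made with 10x Genomics chemistry and read as full cDNA molecules on a nanopore instrument. All 4 libraries shared that strain, sex and genotype, and no group carried an allele or an agent. A library without enrichment came from postnatal day 40, and a second one without enrichment is given no age in the labels. The CD73 library came from postnatal week 8 and the CD90.2 library from postnatal month 4. CD73 marks photoreceptors and CD90.2 marks neurons, the protocol removing CD73-positive cells and retaining CD90.2-positive ones on magnetic columns, where the design text names flow sorting instead. Enrichment and age moved together in these libraries, and the table names no library, so each class is 1 pooled column with no replicate and no test between classes was possible. A gene was called higher or lower by size alone, at 2-fold from the mean of the other 5 columns, and every interval covers counting error only.

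Amacrine cells receive input from bipolar cells and from each other and return inhibition to bipolar terminals, other amacrine cells and ganglion cell dendrites. Nearly all of them release GABA or glycine from conventional synapses, and many types add a neuropeptide, acetylcholine, dopamine or glutamate. The transcription factors Pax6 and Tfap2a/b are standard markers of the class, Gad1 and Gad2 make GABA from glutamate, and Slc6a9 encodes the glycine transporter GlyT1.

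The AC column held 48248340 counts, second to rods with 55437340, while the other 4 columns ranged from 3509890 in ganglion cells to 29010038 in bipolar cells. At these depths 3 counts, the limit that a count of 0 allows, amounted to 0.0622 CPM in amacrine cells and 0.855 CPM in ganglion cells, so a low value in the ganglion cell column is the least certain. In pooled columns, fewer cells with a transcript and less RNA per cell cannot be told apart.

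The label of the column was checked against 6 marker genes, and all 6 were at least 2-fold above every other column. How cells were assigned to classes is not given. If these genes were used for it, their high level follows from the assignment, so the check is not independent. Pax6 stood at 296 CPM in amacrine cells against 24.2 in ganglion cells, 4.09 in rods, 1.07 in bipolar cells, 27.9 in Müller glia and 0.821 in cones. Tfap2b stood at 273 CPM in amacrine cells against 13.1 in ganglion cells, 4.37 in rods, 2.72 in bipolar cells, 1.63 in Müller glia and 1.37 in cones. Gad1 stood at 87.5 CPM in amacrine cells against 0.57 in ganglion cells, 0.83 in rods, 0.172 in bipolar cells, 0.326 in Müller glia and 0.411 in cones, the largest ratio of the 6 at 189.6-fold (95% interval 102 to 357). Amacrine cells were the highest column for each of these genes by more than 10-fold. Tfap2a was at 6.61 CPM in amacrine cells, 0.57 in ganglion cells and 0.0361 in rods, and at 0 counts in bipolar cells, Müller glia and cones. Gad2 was at 7.81 CPM in amacrine cells, 3.13 in ganglion cells, 0.216 in rods and 0.0345 in bipolar cells, and at 0 counts in Müller glia and cones, the narrowest gap to another column, 2.49-fold above ganglion cells. Slc6a9 was at 14.3 CPM in amacrine cells, 3.63 in rods, 0.31 in bipolar cells and 0.958 in cones, and at 0 counts in ganglion cells and Müller glia. Together the 6 markers summed to 686 CPM (95% interval 678 to 693) in amacrine cells, against 3.56 CPM in cones and 41.6 CPM in ganglion cells, the lowest and highest of the other columns.

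Transcripts that define other cell types were also present in the AC column. Lists of 6 markers each summed to 191 CPM for rods, 58.9 CPM for cones, 101 CPM for bipolar cells and 376 CPM for ganglion cells, which is 0.631%, 0.059%, 0.421% and 2.23% of the sum in the column of that class. The Müller glia list summed to 1116 CPM, or 2.19% of its own column, with Apoe at 692 CPM, Glul at 195 CPM and Aqp4 at 10.9 CPM. This sum is above that of the amacrine markers. It is below the 1469 CPM of rods and above the 513, 796 and 94.9 CPM of bipolar cells, cones and ganglion cells. The bipolar genes Grm6 and Trpm1 were at 0 counts in amacrine cells, and the horizontal cell factor Onecut1 was at 3 counts. Onecut2 had 35 AC counts, and the other listed horizontal cell genes in the table, Calb1 and Tpm3, were 3.8-fold and 2.04-fold higher in amacrine cells than the mean. Endothelial markers summed to 0.518 CPM, pericyte markers to 6.24 CPM, microglial markers to 47.3 CPM, astrocyte markers to 645 CPM (Aldoc alone 644 CPM, Gfap 3 counts), which is 29.0% of their sum in Müller glia, pigment epithelium markers to 62.4 CPM and erythroid markers to 27.5 CPM. The part of RNA from these cells in any result below was not tested.

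**Figure D1:**
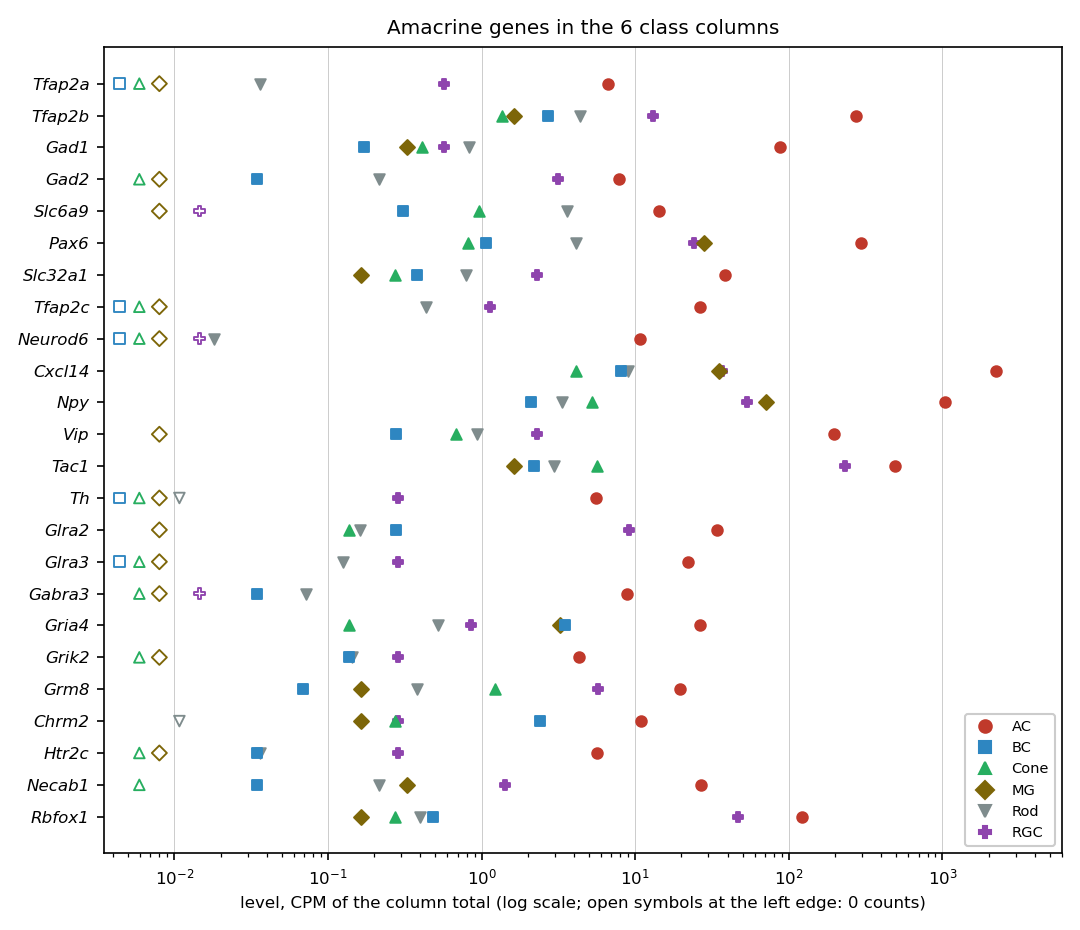
Levels of 24 amacrine genes in the 6 class columns, in CPM on a log axis; filled symbols are the pooled value of a class, and open symbols at the left edge are 0 counts. The genes drawn were chosen among those highest in the amacrine column, so its red circle lies to the right of every other symbol in each row. Examples are Tac1 at 2.12-fold and Gad1 at 106-fold above the next column. Members of the same lists that are highest in another column, such as Calb2 and Penk, are not drawn.

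Across the 7136 genes, 1761 (24.7%) were at least 2-fold higher in amacrine cells than the mean of the other columns and 1237 (17.3%) at least 2-fold lower, with 4138 in between. The median log2 ratio was 0.18. The minimum on AC counts shapes this balance, because 746 genes with a mean elsewhere of at least 2 times the minimum were left out by it. With 100 counts over all columns and no AC minimum, the balance turned to 2057 higher and 3302 lower genes. A scaling by the median of ratios moved the median by -0.23 (log2), and higher genes then made up 47.8% of the calls in place of 58.7%. Amacrine cells were the highest of the 6 columns for 1389 of the 1761 higher genes, and ganglion cells for 245. The stricter rule, a level at least 2-fold above each of the other columns, was met by 554 genes (7.76%), called leading genes here. Under TMM scaling 514 genes met it, and under the median of ratios 442. The next highest column of a leading gene was ganglion cells in 182 genes, bipolar cells in 170, Müller glia in 85, rods in 81 and cones in 36. Protein-coding genes made up 94.5% of all included genes and 89% of the leading genes, and loci named by position 4.26% and 8.66%.

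**Figure D2:**
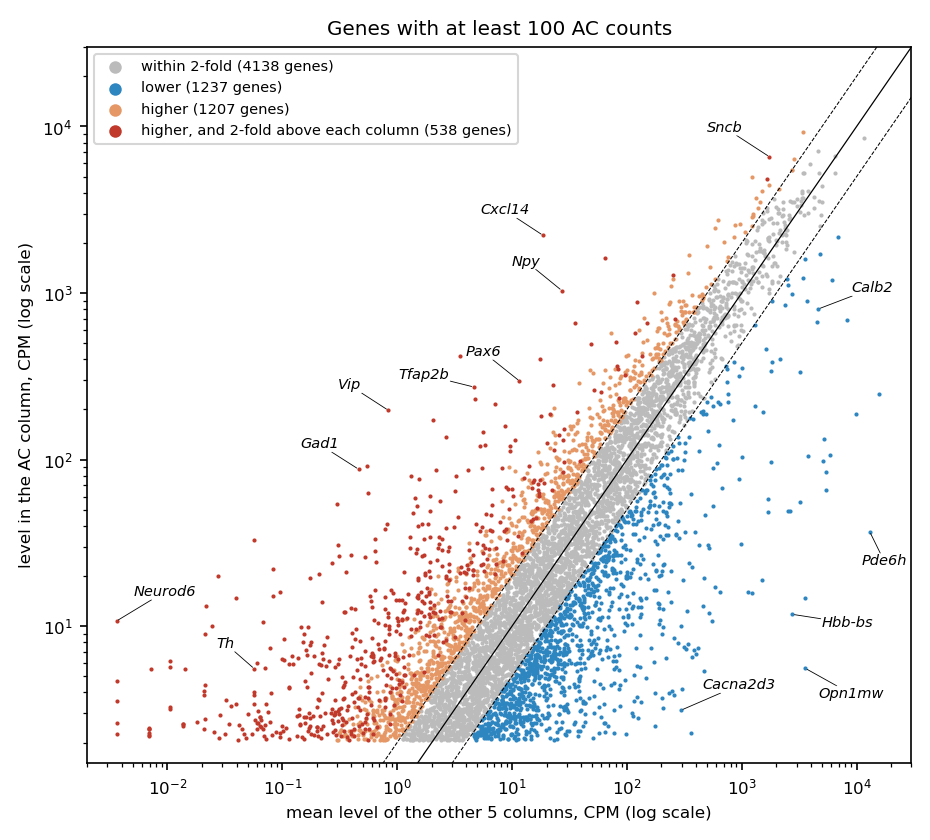
Level in the amacrine column against the mean of the other 5 columns for genes with at least 100 AC counts, in CPM on log axes; the solid line is equality and the dashed lines are 2-fold. The 16 higher genes with 0 counts in all other columns are not drawn; Cxcl14, Npy, Vip and Gad1 lie far above the lines and Pde6h and Opn1mw far below.

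Transcription factors of amacrine development and identity were counted first. Of 26 listed factors in the table, 16 had at least 100 AC counts, and 11 were higher, 2 lower and 3 in between, with a median log2 ratio of 2.50 against 0.18 for all genes. The shares over all included genes were 24.7% higher and 17.3% lower. Beside the markers, Tfap2c, of the same family, was at 26.3 CPM in amacrine cells, 1.14 in ganglion cells and 0.433 in rods, and at 0 counts in bipolar cells, Müller glia and cones. Meis2, a homeobox factor of GABAergic amacrine cells, was at 23.6 CPM in amacrine cells against 1.71 in ganglion cells, 7.43 in rods, 2.14 in bipolar cells, 0 in Müller glia and 2.74 in cones, 8.43-fold (95% interval 6.57 to 10.7) above the mean. Neurod6, the basic helix-loop-helix factor known from a non-GABAergic, non-glycinergic amacrine type, was at 10.7 CPM in amacrine cells and had 1 count, in rods, in all other columns together, a ratio of 2976 with a counting interval from 38.7 to 260969.9. Nr4a2, Nfix, Zfhx3, Lhx9 and Six3 were the other higher factors, Lhx9 with Müller glia above amacrine cells. Neurod1 and Neurod4, used in photoreceptors and bipolar cells, were the 2 lower ones, at 0.0327 and 0.125 times the mean elsewhere. Neurod4 was 1.3 times the mean once the bipolar column was left out, where it stood at 122 CPM. Ptf1a, which acts in amacrine precursors, was at 0 AC counts and Prdm13 at 7.

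Bhlhe22, a factor of several amacrine types, was represented by 2 loci named by position inside its GENCODE M21 gene on the plus strand of chromosome 3. The locus at chr3:18056865-18057517 was at 215 CPM in amacrine cells against 15.4 in ganglion cells, 0.884 in rods, 10.6 in bipolar cells, 7.17 in Müller glia and 1.78 in cones. The locus at chr3:18054240-18054668 was at 147 CPM in amacrine cells against 3.99 in ganglion cells, 1.15 in rods, 14.2 in bipolar cells, 3.59 in Müller glia and 5.2 in cones. Both were leading, by 30-fold and 26.1-fold over the mean of the other columns. Another such locus, chr8:115703259-115704525 on the minus strand inside Maf, was at 34.2 CPM against at most 3.26 CPM elsewhere, and the annotated Maf isoforms, a factor of particular amacrine types, were 10.6-fold higher at 6.51 CPM. In all, 48 of the 554 leading genes were loci named by position.

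Genes for making, loading and recapturing the inhibitory transmitters included 5 leading genes of 12 in the table, 3 of them (Gad1, Gad2 and Slc6a9) among the markers above. Of the 12, 7 had at least 100 AC counts, with 5 higher and 2 lower, against 24.7% higher, 17.3% lower and 7.76% leading among all included genes. Slc32a1, the vesicular transporter that loads both GABA and glycine, was at 38.3 CPM in amacrine cells against 2.28 in ganglion cells, 0.794 in rods, 0.379 in bipolar cells, 0.163 in Müller glia and 0.274 in cones, 49.2-fold (95% interval 28.1 to 90.9) above the mean. Slc6a11, the GABA transporter GAT3, was 8.32-fold higher at 115 AC counts. The 2 lower genes were Slc12a5, the chloride exporter KCC2, at 0.198 times, and Slc38a1, a glutamine transporter, at 0.495 times the mean. Slc38a1 was 1.24 times the median of the other columns.

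The glycine transporter Slc6a9 also differed in its isoform. An unannotated isoform of 13 exons carried 82.5% (95% interval 79.5 to 85.3, 571 of 692 counts) of its amacrine counts and 17.4% in rods, the only other column with more than 9 counts. The annotated isoform with the upstream start carried 12.6% in amacrine cells and 46.8% in rods. The amacrine isoform began with a first exon at chr4:117849370-117849466 (GRCm38, plus strand), and the upstream isoform at chr4:117835299-117835477. GENCODE M21 places a start codon in the amacrine first exon, in a transcript that shares it, and no coding base in the upstream one. GlyT1 is known to have variants that differ at the amino terminus. The 87 coding bases of the amacrine first exon, from the GENCODE M21 transcript with this exon and with the start codon in capitals, were as follows.
Slc6a9 amacrine first exon, coding part: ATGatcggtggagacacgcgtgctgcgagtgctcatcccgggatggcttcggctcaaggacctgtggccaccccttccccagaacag

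Gad1 counts were divided evenly between a full-length isoform of 17 exons and an unannotated isoform of 4 exons from the same start, each with 2112 of 4224 AC counts. In rods, the only other column with 20 or more counts, the 4-exon isoform had 2 of 46. Gad2 showed no such division, and its 16-exon isoform held 93.1% of 377 AC counts.

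Markers of a second transmitter were scarce, with 3 of 10 genes in the table above the minimum. Th, the tyrosine hydroxylase of dopaminergic amacrine cells, had 268 AC counts (5.55 CPM) and 1 count, in ganglion cells, in all other columns, a ratio of 97.5 with a counting interval from 13.3 to 8880.1. Chat, which makes acetylcholine in starburst cells, had 26 AC counts and 0 in every other column, below the minimum for a call. The vesicular acetylcholine transporter Slc18a3 had 21 AC counts, the nitric oxide synthase Nos1 had 35, and the vesicular glutamate transporter Slc17a8 of glutamatergic amacrine cells had 25. Which amacrine types entered the column was not tested.

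Neuropeptides did not differ in 1 direction. Of 17 genes in the table, 13 had at least 100 AC counts, and 6 were higher, 4 lower and 3 in between, beside 24.7% higher and 17.3% lower over all included genes. Cxcl14, a secreted chemokine listed with the peptides, was at 2223 CPM in amacrine cells against 36.8 in ganglion cells, 8.98 in rods, 8.1 in bipolar cells, 34.9 in Müller glia and 4.11 in cones, 119.7-fold (95% interval 108 to 134) above the mean. Npy, neuropeptide Y, was at 1035 CPM in amacrine cells against 53.6 in ganglion cells, 3.32 in rods, 2.1 in bipolar cells, 71.4 in Müller glia and 5.2 in cones, 38.2-fold (95% interval 34.6 to 42.1) above it. Vip, vasoactive intestinal peptide of a GABAergic amacrine type, was at 198 CPM in amacrine cells, 2.28 in ganglion cells, 0.938 in rods, 0.276 in bipolar cells and 0.684 in cones, and at 0 counts in Müller glia, 237-fold (95% interval 143 to 411) above it. These 3 genes exceeded every other column by 14.5-fold or more. Tac1, the precursor of substance P, was at 493 CPM in amacrine cells against 232 in ganglion cells, 2.98 in rods, 2.21 in bipolar cells, 1.63 in Müller glia and 5.61 in cones, and ganglion cells were its only other high column. Its 2 main isoforms, of 6 and 7 exons, shared the amacrine counts as 53.1% and 46.9%. Pcsk1n, an inhibitor of the prohormone convertase PCSK1, was 2.54-fold higher than the mean, at 4438 CPM against 4845 CPM in ganglion cells. Pdyn, prodynorphin, was 2.06-fold higher than the mean with a higher level in Müller glia. Penk, Gal, Chgb and Scg2 were lower, at 0.0604, 0.304, 0.119 and 0.14 times the mean, with ganglion cells highest for Penk and Gal and bipolar cells for Chgb and Scg2. Cartpt stood at 647 CPM against 1448 in ganglion cells, and Cck at 503 CPM against 1528 in bipolar cells, so both were within 2-fold of the mean. Sst, somatostatin, was at 0 AC counts, which allows up to 0.0622 CPM.

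Markers of single amacrine types were mixed, with 11 of 20 in the table above the minimum, 5 higher and 3 lower. This stands beside 24.7% higher and 17.3% lower over all included genes. Dab1, a reelin adaptor present in AII amacrine cells, was at 22.6 CPM in amacrine cells against 5.41 in ganglion cells, 1.53 in rods, 7.45 in bipolar cells, 3.59 in Müller glia and 0.137 in cones. Maf, Neurod6 and Th were higher too, as was Lhx9, although Müller glia were above amacrine cells for Lhx9 (7.01 and 5.26 CPM). Calb2, calretinin, was at 802 CPM in amacrine cells against 23012 in ganglion cells, 104 in rods, 27.6 in bipolar cells, 26.9 in Müller glia and 30 in cones. It was 0.173 times (95% interval 0.17 to 0.176) the mean of the others with the ganglion cell column in that mean, and 17 times the mean of the other 4. Pvalb, parvalbumin, was at 0.319 times the mean and 5.94 times without the ganglion cells. Car2, carbonic anhydrase, was lower at 0.158 times the mean.

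Receptors for GABA and glycine held 7 leading genes, against 8 among the transcription factors and 7.76% of all included genes. Of 23 in the table, 16 had at least 100 AC counts, and 11 were higher, none lower and 5 in between, with a median log2 ratio of 2.18. All included genes were 24.7% higher and 17.3% lower. Glra2 and Glra3 encode alpha subunits of the glycine receptor. Glra3 was at 22 CPM in amacrine cells, 0.285 in ganglion cells and 0.126 in rods, and at 0 counts in bipolar cells, Müller glia and cones, 268-fold (95% interval 54.1 to 3349) above the mean. Glra2 was at 34.1 CPM in amacrine cells, 9.12 in ganglion cells, 0.162 in rods, 0.276 in bipolar cells and 0.137 in cones, and at 0 counts in Müller glia, 17.6-fold (95% interval 11.5 to 28) above it. Glra4 had 116 AC counts and 2 in all other columns, whereas Glra1 was at 0 AC counts. The beta subunit Glrb was 3.76-fold higher, at 17.5 CPM in amacrine cells and 21.7 CPM in ganglion cells. Among subunits of the GABA-A receptor, Gabra3 was at 8.91 CPM in amacrine cells, 0.0722 in rods and 0.0345 in bipolar cells, and at 0 counts in ganglion cells, Müller glia and cones, 418-fold above the mean. Gabrd, of extrasynaptic receptors, was at 24.2 CPM in amacrine cells against 1.42 in ganglion cells, 0.703 in rods, 7.89 in bipolar cells, 0.326 in Müller glia and 11.8 in cones. Gabra2, Gabra4, Gabrb1, Gabrg1 and Gabrg3 were also higher, Gabra2 with ganglion cells above amacrine cells. Gabrr1 and Gabrr2, which form the GABA-C receptors of bipolar terminals, had 21 and 37 AC counts against 382 and 380.2 CPM in bipolar cells. Gphn, the scaffold gephyrin, was within 2-fold of the mean.

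Glutamate receptors comprised the AMPA, kainate and NMDA subunits that can receive bipolar input and the metabotropic receptors. Of 18 in the table, 6 had at least 100 AC counts, and all 6 were higher, which is also what a minimum on AC counts favours. Of all included genes 24.7% were higher. Gria4, an AMPA receptor subunit, was at 26.4 CPM in amacrine cells against 0.855 in ganglion cells, 0.523 in rods, 3.48 in bipolar cells, 3.26 in Müller glia and 0.137 in cones, 16-fold (95% interval 11.3 to 22.5) above the mean. Grik2, a kainate receptor subunit, was at 4.29 CPM in amacrine cells, 0.285 in ganglion cells, 0.144 in rods and 0.138 in bipolar cells, and at 0 counts in Müller glia and cones, 37.8-fold above it. Grm8, a presynaptic group III metabotropic receptor, was at 19.6 CPM in amacrine cells against 5.7 in ganglion cells, 0.379 in rods, 0.0689 in bipolar cells, 0.163 in Müller glia and 1.23 in cones, 13-fold above it. Gria3, Grin1 and Grm7 were 4.34-fold, 2.24-fold and 11.7-fold higher, and Grin1, the obligate NMDA receptor subunit, was highest in bipolar cells. Gria2 had 26 AC counts, and Grm5 had 0.

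Of 4 receptors for acetylcholine and monoamines above the minimum, 2 were higher and 2 lower, where 24.7% and 17.3% of all included genes were. Chrm2, a muscarinic receptor, was at 10.9 CPM in amacrine cells against 0.285 in ganglion cells, 0 in rods, 2.41 in bipolar cells, 0.163 in Müller glia and 0.274 in cones, 17.5-fold (95% interval 10.3 to 27.9) above the mean. Htr2c, a serotonin receptor, had 272 AC counts and 4 in all other columns. Drd4, the dopamine receptor of photoreceptors, was lower at 0.0186 times the mean. Chrna6, a nicotinic subunit of ganglion cells, was 0.488 times the mean, and 8.58 times without that column.

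Of 21 voltage-gated sodium and calcium channel genes in the table, 9 passed the minimum, with 4 higher and 2 lower. Among all included genes 24.7% were higher and 17.3% lower. Scn3b, an auxiliary sodium channel subunit, had 180 AC counts and 0 in every other column, so it was at least 9.76-fold higher against a limit of 3 counts per column. Scn3a was 8.45-fold, Cacnb2 3.57-fold and Cacna1e, at the minimum of 100 counts, 50.1-fold higher. Cacna2d3, a calcium channel subunit of bipolar cells, was at 3.13 CPM in amacrine cells against 0 in ganglion cells, 30.8 in rods, 1368 in bipolar cells, 44.5 in Müller glia and 38.3 in cones. Cacna2d4, the photoreceptor channel subunit, was within 2-fold, and 99% of its 400 AC counts lay on 1 unannotated isoform that had 1 count in all other columns together.

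Genes of conventional synapses were divided much as all included genes were. Of 31 in the table, 22 passed the minimum, 5 were higher, 3 lower and 14 in between, against 24.7% higher and 17.3% lower over all genes. Amacrine cells were the highest column for 7 of the listed genes. Vamp2, the vesicle SNARE synaptobrevin, was at 2749 CPM in amacrine cells against 1416 in ganglion cells, 503 in rods, 513 in bipolar cells, 87.7 in Müller glia and 600 in cones, 4.41-fold (95% interval 4.31 to 4.51) above the mean. Sncb, beta-synuclein, was at 6579.9 CPM in amacrine cells against 3249.7 in ganglion cells, 615 in rods, 3289 in bipolar cells, 99.9 in Müller glia and 1448 in cones, the only leading gene of the list. Sncb was 2.00-fold above bipolar cells, at the limit of the rule for a leading gene. Rab3a and Syn1 were 2.33-fold and 6.05-fold higher, Rab3a with ganglion cells above amacrine cells (3435 and 3247 CPM). Snap25 stood at 3114 CPM against 6614 in ganglion cells and Cplx1 at 87.5 against 216, both within 2-fold of the mean. Syp, synaptophysin, was lower at 10.2 CPM in amacrine cells against 6.27 in ganglion cells, 95.4 in rods, 421 in bipolar cells, 30 in Müller glia and 397 in cones. Nsf and Vamp1 were lower too, although Vamp1 was 1.57 times the mean without the ganglion cells. Genes of the ribbon synapse, which amacrine cells lack, included 4 lower genes of 8 that passed, where 17.3% of all included genes were lower, and 5 under TMM and 6 under median-of-ratios scaling. The 4 were Cplx4, Cabp4, Stx3 and Unc119, at 0.0221, 0.0148, 0.149 and 0.15 times the mean. Cplx3, a complexin of ribbon synapses also known from some amacrine cells, was 3.11-fold higher. Ctbp2, whose locus encodes both the ribbon protein RIBEYE and a nuclear corepressor, was 3.8-fold higher, and the count per gene does not separate the pair.

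Adhesion and recognition genes included 13 higher of the 23 that passed, with 4 lower and a median log2 ratio of 1.05, beside 24.7% higher and 17.3% lower over all included genes. The list had 12 higher and 5 lower under TMM scaling, and 11 higher and 5 lower under the median of ratios. Nrxn2, a presynaptic neurexin, was at 12.6 CPM in amacrine cells, 0.198 in rods and 1.93 in bipolar cells, and at 0 counts in ganglion cells, Müller glia and cones, 29.7-fold (95% interval 17.1 to 43.8) above the mean. Lrrn3, a leucine-rich repeat protein, was at 11.2 CPM in amacrine cells against 0.57 in ganglion cells, 0.0722 in rods, 2.76 in bipolar cells, 1.63 in Müller glia and 0 in cones. Robo1, a Slit receptor, had 158 AC counts and 2 in all other columns. Tenm2, Nrxn3, Cdh13, Tenm4, Slit2, Lsamp, Robo2, Cdh8 and Pcdh17 were higher as well, between 2.04-fold and 6.01-fold. Amacrine cells were not the highest column for all of them. Bipolar cells were above them for Nrxn3 (20.8 against 15.6 CPM) and Slit2 (8.41 against 5.95 CPM), and ganglion cells for Lsamp (203 against 180 CPM). Cntn5, Cntnap2, Cntn1 and Negr1 were lower. Without the bipolar column Cntn5 was 4.23 times the mean, and Cntnap2 was 1.15 times the median of the others.

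Of 13 calcium-binding proteins above the minimum, 6 were higher and 5 lower, beside 24.7% and 17.3% over all included genes. Under either TMM or median-of-ratios scaling 5 were higher and 6 lower. Necab1, a neuronal EF-hand protein, was at 26.9 CPM in amacrine cells, 1.42 in ganglion cells, 0.216 in rods, 0.0345 in bipolar cells and 0.326 in Müller glia, and at 0 counts in cones, 67.1-fold above the mean. Calb1, calbindin, was at 72.1 CPM in amacrine cells against 33.9 in ganglion cells, 12 in rods, 18.5 in bipolar cells, 9.29 in Müller glia and 21.2 in cones, 3.8-fold (95% interval 3.33 to 4.33) above it. Calm3, Calm2, Hpca and Vsnl1 were 4.84-fold, 2.68-fold, 2.83-fold and 2.12-fold higher, each except Calm3 with ganglion cells above amacrine cells. Hpcal1, Necab2 and S100a10 were lower with ganglion cells highest, and S100a10 was 1.52 times the median of the others. The only gap junction gene above the minimum, Gjd2 (connexin 36), which couples AII amacrine cells, was at 12.9 CPM in amacrine cells against 8.55 in ganglion cells, 25.2 in rods, 14 in bipolar cells, 0.163 in Müller glia and 5.34 in cones, within 2-fold of the mean.

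**Figure D3:**
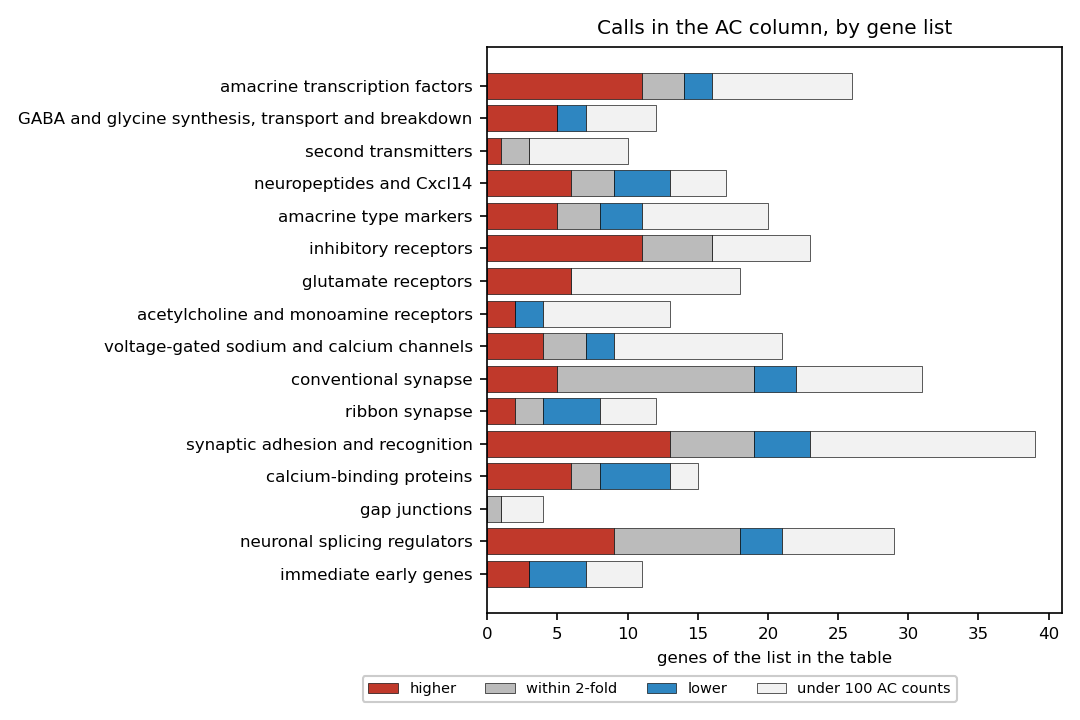
Number of genes per list that were higher, within 2-fold or lower in the amacrine column against the mean of the other 5 columns, or had fewer than 100 AC counts. Among members with at least 100 AC counts, 11 of 16 transcription factors, 11 of 16 inhibitory receptors and 13 of 23 adhesion genes were higher. Of 22 such conventional synapse genes, 14 lie within 2-fold. Of all genes with at least 100 AC counts, 24.7% were higher and 17.3% lower.

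Neuronal splicing regulators included 9 higher and 3 lower of 21 genes that passed, where 24.7% of all included genes were higher and 17.3% lower. Rbfox1, which controls neuronal exon use, was at 121 CPM in amacrine cells against 46.4 in ganglion cells, 0.397 in rods, 0.483 in bipolar cells, 0.163 in Müller glia and 0.274 in cones, 12.7-fold (95% interval 10.4 to 15.6) above the mean. Khdrbs2, Elavl3 and Celf4 were 5.38-fold, 6.99-fold and 15.3-fold higher, and Rbm24, an RNA-binding protein known from muscle splicing, 10.3-fold. Rbfox2 and Elavl4 were higher than the mean with ganglion cells above them, and Celf5 and Msi2 were 2.9-fold and 2.23-fold higher. Msi1, which promotes photoreceptor exons, was at 3.23 CPM in amacrine cells against 0.285 in ganglion cells, 28.3 in rods, 1.48 in bipolar cells, 1.14 in Müller glia and 16.4 in cones, lower than the mean but 2.18 times the median of the others. Celf1 and Celf2 were the other lower genes. Srrm3 and Srrm4, regulators of microexons, stood at 2.45 and 3.09 CPM, 0.532 and 0.538 times the mean, and the lower genes of the list numbered 5 under TMM scaling and 7 under the median of ratios. Of the Rbfox1 counts in amacrine cells, 73.8% lay on an unannotated isoform of 3 exons and 23% on one of 12 exons.

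Immediate early genes, which tissue dissociation is known to induce, were measured beside these lists. Fos, Jun, Junb and Btg2 were lower in amacrine cells, at 0.401, 0.115, 0.317 and 0.0608 times the mean, with Müller glia the highest column for each, and Fos was 1.16 times the median of the others. Egr1, Nr4a1 and Npas4 were higher, at 5.53-fold, 2.47-fold and 5.69-fold, Nr4a1 with bipolar cells above amacrine cells (24.8 and 23.2 CPM). Their part in the other results was not tested.

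The 20 leading genes of highest amacrine level included Sncb, Cxcl14, Npy, Tac1 and Pax6 from above. Dtnbp1, which encodes dysbindin of the BLOC-1 complex, was at 1613 CPM in amacrine cells against 208 in ganglion cells, 39.4 in rods, 26.7 in bipolar cells, 25.8 in Müller glia and 23.8 in cones, 24.9-fold (95% interval 23.3 to 26.6) above the mean. C1ql2, a secreted C1q-like synaptic organizer, was at 420.1 CPM in amacrine cells against 14.2 in ganglion cells, 1.98 in rods, 0.31 in bipolar cells, 0.815 in Müller glia and 0.274 in cones, 119-fold above it. Kcna6, the potassium channel Kv1.6, was at 662 CPM in amacrine cells against 119.7 in ganglion cells, 5.48 in rods, 41.7 in bipolar cells, 5.05 in Müller glia and 3.83 in cones, 18.8-fold (95% interval 17.2 to 20.6) above it. Crabp1, a cytosolic retinoic acid-binding protein, was at 399.7 CPM in amacrine cells against 34.5 in ganglion cells, 4.76 in rods, 17.8 in bipolar cells, 23.5 in Müller glia and 7.12 in cones. These 4 genes had ganglion cells as their next column. Hsd17b12, an enzyme of fatty acid elongation, was at 507 CPM in amacrine cells against 79.5 in ganglion cells, 49.4 in rods, 91.5 in bipolar cells, 101 in Müller glia and 80.1 in cones, a flat level elsewhere and 6.32-fold above the mean. H3f3b, histone H3.3, Ddit3, the stress factor CHOP, and Qdpr, which recycles tetrahydrobiopterin, were 2.92-fold, 2.65-fold and 3.09-fold higher. Eef1e1, Dusp26, Flywch2, Pcp4l1, Pole4, Spg21 and Vamp4 completed the 20, between 3.37-fold and 7.15-fold. Several of the 20 were near the limit of the rule, such as Sncb, Pole4, Qdpr and Flywch2. Their levels were 2.00-fold, 2.01-fold, 2.03-fold and 2.04-fold above the next column.

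The 10 largest ratios among genes with at least 1000 AC counts were those of Rspo4, Glra3, Vip, Gad1, Tmem114, Stc1, Cxcl14, C1ql2, C1ql1 and Gng8. Rspo4, a secreted Wnt agonist, had 1597 AC counts (33.1 CPM) and 1 count elsewhere, in ganglion cells, a ratio of 581 with a counting interval from 86 to 48838. Stc1, the secreted glycoprotein stanniocalcin 1, was at 91.5 CPM in amacrine cells against 1.99 in ganglion cells, 0.0902 in rods, 0.207 in bipolar cells, 0.326 in Müller glia and 0.137 in cones, 166-fold (95% interval 84 to 372) above the mean. Tmem114, a claudin-family membrane protein, was at 54.1 CPM in amacrine cells, 1.42 in ganglion cells and 0.0722 in rods, and at 0 counts in bipolar cells, Müller glia and cones. Gng8, a G protein gamma subunit, was at 30.8 CPM in amacrine cells, 1.14 in ganglion cells, 0.108 in rods, 0.103 in bipolar cells and 0.163 in Müller glia, and at 0 counts in cones. Ganglion cells were the next column of each of these 4 genes. In all, 16 higher genes had 0 counts in every other column and 37 had 1 to 3.

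Genes lower in amacrine cells were highest in rods in 436 cases, Müller glia in 380, bipolar cells in 190, cones in 164 and ganglion cells in 67. The 10 largest ratios down, among genes with a mean elsewhere of at least 100 CPM, were photoreceptor genes in 7 cases, the cone opsins Opn1mw and Opn1sw, the phosphodiesterase subunit Pde6h, the cone G protein subunit Gngt2, Rtbdn, Guca1a and Aipl1. Opn1mw was at 5.58 CPM in amacrine cells against 0 in ganglion cells, 246 in rods, 104 in bipolar cells, 82.5 in Müller glia and 17489 in cones. Pde6h was at 36.9 CPM in amacrine cells against 0 in ganglion cells, 1222 in rods, 531 in bipolar cells, 388 in Müller glia and 62874 in cones. Guca1a, the guanylate cyclase activator, was at 65.8 CPM in amacrine cells against 0 in ganglion cells, 10507 in rods, 328 in bipolar cells, 899 in Müller glia and 15151 in cones. Each of these 3 was at 0 counts in ganglion cells and above 5 CPM in amacrine cells. The other 3 were Gnb3, a G protein subunit of cones and bipolar cells, Cacna2d3, and the globin Hbb-bs, at 11.8 CPM against 10259 CPM in Müller glia. At the threshold itself, 26 genes had exactly 100 AC counts, with ratios from 0.089 to 50.1 and a median of 1.42, and 29 genes had 99, with a median of 0.608.

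Isoform use was compared in the 4588 genes that had 2 or more isoforms and at least 100 counts both in amacrine cells and in the other columns together. The most abundant isoform was the same in 83.2% of them. It differed in 773, and in 165 (3.6%) the share of 1 of the 2 isoforms also differed by at least 50 percentage points, the rule for a different dominant isoform. Of the 165 genes, 112 were called again against the mean of the columns' own shares, 118 without the rod column, 133 without bipolar cells and 138 with every column thinned to the total of the smallest. Of the 165, 27 were higher, 58 lower and 9 leading in amacrine cells. The shares over all included genes were 24.7% higher, 17.3% lower and 7.76% leading. The matching base is the 4588 compared genes, of which 155 were leading. Higher and lower genes among the 4588 were not counted, so whether the called genes differ from them in this was not tested. Structures were known for both isoforms in 153 pairs, which differed in the first exon in 84, in the last exon in 54 and by a cassette exon in 49, with more than 1 kind possible per pair. The 2 models did not overlap at all in 19 pairs and 1 of them had a single exon in 7, so some of these differences are between fragments of a transcript, whose origin was not tested. In the called genes, ganglion cells had the amacrine isoform on top in 34 of 64 genes with 20 or more counts, against 31 of 158 in bipolar cells, 21 of 107 in Müller glia, 19 of 155 in rods and 11 of 112 in cones. The same count over all compared genes was not made. Since the called genes were chosen for a difference from the mean of these columns, little sharing with the columns that weigh most in it is built in.

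The dominant isoform took most of the amacrine counts in a typical gene. Of 4986 included genes with 2 or more isoforms, 1395 (28%) had at least 90% of their AC counts on 1 isoform, and the median share of the dominant isoform was 75.9%. Among leading genes it was 76 of 382, with a median of 71.9%. The table listed a single isoform for 2150 included genes. The dominant amacrine isoform was unannotated in 1004 (21.9%) of the 4588 genes. The 5 unannotated dominant isoforms with the most AC counts were in Nap1l5, Serp2, Ergic3, Phb2 and Sarnp. Their shares elsewhere were close for Nap1l5, Serp2 and Phb2 (97.7%, 86.4% and 97.1% in amacrine cells, 97%, 85.5% and 97.6% in the mean of the others). That of Sarnp was 45.6% against 25.2%. Ergic3, a cargo receptor of the early secretory pathway, had 98.1% in amacrine cells on a 14-exon isoform that had 12.2% in Müller glia and 98.3% in bipolar cells.

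Alternative first exons were the most frequent kind of difference, and 2 genes show it in models that share their last exon. Fgf13, a channel-binding intracellular fibroblast growth factor whose isoforms differ at the amino terminus, was 3.21-fold higher in amacrine cells, with ganglion cells close to them (123 and 147 CPM). An unannotated isoform of 7 exons that started at chrX:59567984-59568071 (minus strand) carried 75.6% (95% interval 74.5 to 76.7, 4480 of 5925 counts) in amacrine cells. Its share was 1.55% in ganglion cells, 13.8% in rods, 11.4% in Müller glia and 0.125% in bipolar cells. The other classes used the annotated isoform of 5 exons that starts at chrX:59133877-59134436, which held 17.8% of amacrine counts and 96.1% of ganglion cell counts. The coding part of the first exon that amacrine transcripts mostly left out, 187 bases with the start codon in capitals, was as follows.
Fgf13 first exon of the other classes, coding part: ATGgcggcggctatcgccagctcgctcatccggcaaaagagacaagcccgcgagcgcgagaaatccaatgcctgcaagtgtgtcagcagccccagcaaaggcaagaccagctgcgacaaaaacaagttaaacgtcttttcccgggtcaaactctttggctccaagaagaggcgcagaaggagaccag

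Rorb, an orphan nuclear receptor whose isoforms differ at the amino terminus, was the other gene. The isoform with the upstream first exon, chr19:19110552-19111196 (minus strand), carried 91.8% (95% interval 89 to 94.1, 449 of 489 counts) in amacrine cells, 36 of 36 counts in ganglion cells, 56.9% in bipolar cells and 0.686% in rods. Its first exon codes for 7 bases and that of the rod isoform, chr19:19001007-19001111, for 40, shown here with the start codon in capitals because they set the amino terminus.
Rorb amacrine first exon, coding part: ATGcgag
Rorb rod first exon, coding part: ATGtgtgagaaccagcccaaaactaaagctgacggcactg

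Pax6 did not meet the rule for a different dominant isoform. In amacrine cells 51.2% (95% interval 50.4 to 52, 7320 of 14297 counts) of Pax6 counts lay on an unannotated isoform of 11 exons and 35.9% (95% interval 35.1 to 36.7, 5127 of 14297 counts) on one of 10 exons, both starting at chr2:105682508 (plus strand). An annotated isoform that starts upstream, at chr2:105668900, held 6.85% in amacrine cells, 55% in Müller glia and 62.4% in ganglion cells. The 2 amacrine isoforms differed by a coding exon of 42 bases at chr2:105684751-105684792, the alternative exon 5a of the paired domain. It was included in 56.2% of amacrine counts that span it (95% interval 55.3 to 57), 28.2% in ganglion cells, 55.9% in rods, 38.7% in bipolar cells, 21.1% in Müller glia and 66.7% in cones. The columns other than amacrine cells rest on 6 to 227 Pax6 counts each. The exon is shown in capitals between 20 bases of the exons on each side, from the GENCODE M21 transcript that holds it.
Pax6 42-base exon: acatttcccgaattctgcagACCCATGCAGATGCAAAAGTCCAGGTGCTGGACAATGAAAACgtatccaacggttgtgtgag

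**Figure D4:**
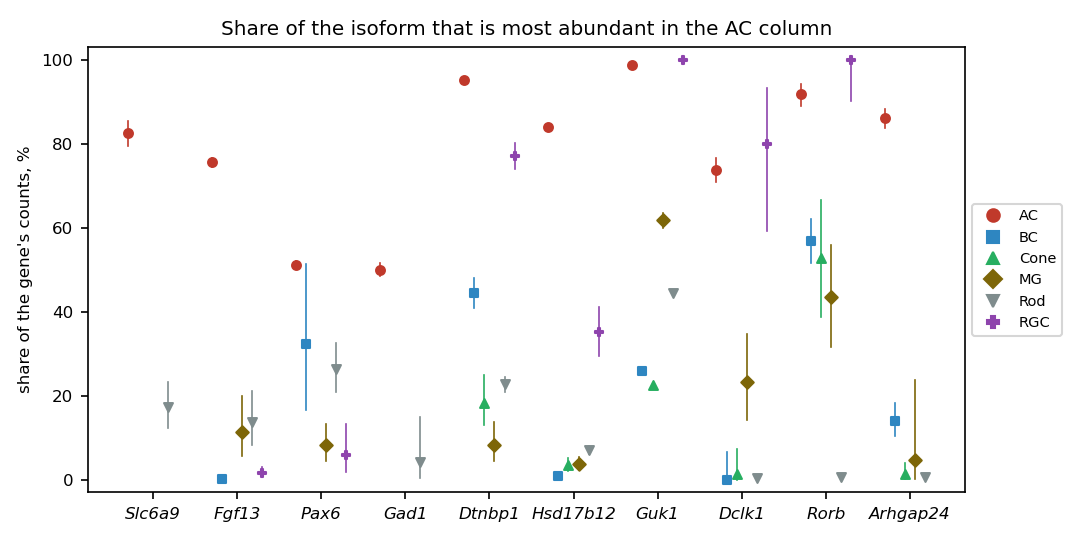
Share of the most abundant amacrine isoform among all counts of its gene, in percent, for 10 genes in each class column with at least 20 counts of the gene; vertical lines are exact 95% intervals for counting error only. For Fgf13 and Hsd17b12 the amacrine value (75.6% and 84%) lies above all others, and for Guk1 and Rorb ganglion cells lie at or near 100%. For Gad1 a pair of isoforms ties for the highest amacrine count, and the isoform drawn is an arbitrary member of that pair.

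Short exons differed in part of the called pairs. Among these pairs, without Pax6, 24 exons of at most 60 bases differed, of which 21 in 19 genes were coding in GENCODE M21 and 18 of those were multiples of 3. Since the genes were chosen for a difference from the mean of the other columns, the direction against that mean is fixed, and the shares of each column are given as a description. Inclusion in ganglion cells was within 25 percentage points of amacrine cells for 9 of 11 coding exons with 20 or more ganglion cell counts, against 5 of 21 in bipolar cells, 4 of 19 in Müller glia, 2 of 21 in rods and 1 of 16 in cones. The genes in the next sentences were chosen after their values were seen.

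Nsfl1c, which encodes the p97 cofactor p47, had a 6-base exon at chr2:151502455-151502460 (plus strand) that was included in 97.8% of amacrine counts that span it (95% interval 97.5 to 98.1), 99.1% in ganglion cells, 32% in rods, 23.2% in bipolar cells, 35.2% in Müller glia and 30.9% in cones. Lman2l, a lectin of the early secretory pathway, had a 33-base exon at chr1:36429423-36429455 (minus strand) included in 97.3% of amacrine counts that span it (95% interval 96.3 to 98.2), 100% in ganglion cells, 2.78% in rods, 29.9% in bipolar cells, 2.67% in Müller glia and 1.25% in cones. Ewsr1, an RNA-binding protein, had an 18-base exon at chr11:5091460-5091477 (minus strand) included in 66.9% of amacrine counts that span it (95% interval 65.5 to 68.2), 66.9% in ganglion cells, 1.41% in rods, 0.499% in bipolar cells, 0% in Müller glia and 1.86% in cones. In amacrine cells 4565 of 6557 Ewsr1 counts lay on isoforms that span this exon, and the rest do not enter the share. In all 3 genes, amacrine and ganglion cells were the columns of high inclusion. The reverse held for Atp1b2, the beta 2 subunit of the sodium-potassium pump, which had a pair of neighbouring exons of 27 and 21 bases. The 27-base exon, at chr11:69602304-69602330 (minus strand), was included in 3.61% of amacrine counts that span it (95% interval 3.16 to 4.11), 0.909% in ganglion cells, 99% in rods, 29.9% in bipolar cells, 6.98% in Müller glia and 99.1% in cones. The 21-base exon, at chr11:69601924-69601944, was included in 0.49% of amacrine counts that span it (95% interval 0.331 to 0.699), 0% in ganglion cells, 97.6% in rods, 10.1% in bipolar cells, 6.98% in Müller glia and 94% in cones. Ttc8, the Bardet-Biedl gene BBS8, had a 30-base exon at chr12:98937120-98937149 (plus strand) included in 8.83% of amacrine counts that span it (95% interval 6.08 to 12.3), 98.9% in rods, 39.1% in bipolar cells, 31.4% in Müller glia and 97.4% in cones. For both genes, rods and cones were near full inclusion and amacrine cells under 10%. The exons are shown in capitals between 20 bases of the transcript on each side, from GENCODE M21.
Nsfl1c 6-base exon: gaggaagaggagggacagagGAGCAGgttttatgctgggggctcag
Lman2l 33-base exon: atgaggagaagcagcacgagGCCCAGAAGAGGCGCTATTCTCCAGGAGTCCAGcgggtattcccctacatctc
Ewsr1 18-base exon: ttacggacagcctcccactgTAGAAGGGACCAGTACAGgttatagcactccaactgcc
Atp1b2 27-base exon: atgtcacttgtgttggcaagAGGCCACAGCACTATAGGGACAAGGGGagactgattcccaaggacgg
Atp1b2 21-base exon: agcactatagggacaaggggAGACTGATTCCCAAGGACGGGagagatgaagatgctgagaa
Ttc8 30-base exon: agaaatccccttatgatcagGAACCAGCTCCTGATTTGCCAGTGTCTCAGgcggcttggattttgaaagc

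Not every short exon grouped amacrine with ganglion cells. The 18-base exon of Rps24, a protein of the small ribosomal subunit, is not coding in GENCODE M21 and has the most counts of these exons. It was included in 7.65% of amacrine counts that span it (95% interval 7.53 to 7.78), 80.1% in ganglion cells, 90.8% in rods, 42.4% in bipolar cells, 20.8% in Müller glia and 91.1% in cones. The 39-base exon of Ndrg4, a cytoplasmic protein of neurons, was included in 14.8% of amacrine counts that span it (95% interval 13.8 to 15.7), 96.8% in ganglion cells, 41% in rods, 2.06% in bipolar cells, 27.3% in Müller glia and 31.6% in cones, a gap of over 80 points between amacrine and ganglion cells. The 29-base exon of Ubxn11 also differed, at 3.42% of 117 AC counts and 29 of 29 ganglion cell counts. The 54-base exon of Zfyve21 was set apart by Müller glia alone, at 4.45% against 80% in amacrine cells.

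**Figure D5:**
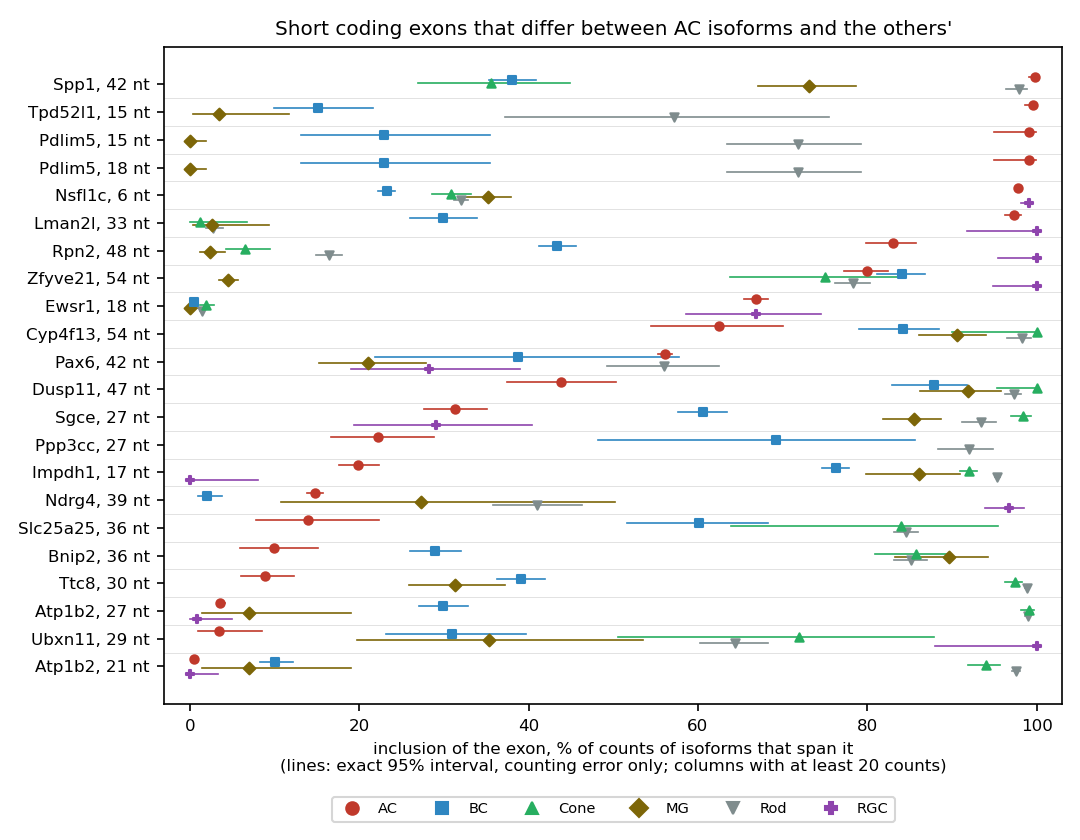
Inclusion of 22 short coding exons, in percent of the counts of isoforms that span them, in each class column with at least 20 such counts; horizontal lines are exact 95% intervals for counting error only. Amacrine and ganglion cells lie together for Nsfl1c, Lman2l, Ewsr1, Sgce and both Atp1b2 exons, far from rods and cones, and lie apart for Ndrg4 and Ubxn11.

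Longer differences included genes of high amacrine level. Hsd17b12 transcripts in amacrine cells lay to 84% (95% interval 83.5 to 84.4, 20549 of 24476 counts) on an 8-exon isoform annotated as a processed transcript, against 35.1% in ganglion cells and at most 7.04% in the other 4 columns. The 11-exon coding isoform made up the rest. Dtnbp1 was alike in kind, with 95.1% of amacrine and 77.2% of ganglion cell counts on a 4-exon processed transcript and 22.7% in rods, although the mean of the other columns had the same isoform on top. The dominant Kcna6 isoform, with 96.6% of AC counts, is annotated as a target of nonsense-mediated decay. Levels of these 3 genes are therefore mostly levels of transcripts that the annotation does not list as plainly coding. Guk1, guanylate kinase, used 1 of 2 annotated first exons in 98.6% of amacrine and 2385 of 2386 ganglion cell counts, and in 25.8%, 22.7%, 61.8% and 44.4% of those in bipolar cells, cones, Müller glia and rods. Guk1, like Rorb above and Dclk1, Tpm2 and Impdh1 below, was chosen after its values were seen.

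Arhgap24, a GTPase-activating protein of the actin cytoskeleton, used a downstream first exon in 86.1% (95% interval 83.6 to 88.3, 744 of 864 counts) in amacrine cells and in 0.6% in rods. Dclk1, a microtubule-binding kinase, had 73.8% of amacrine and 20 of 25 ganglion cell counts on a short 3-exon isoform, while 99% of rod counts lay on a 2-exon processed transcript that did not overlap it. Tpm2, a tropomyosin, was split between 2 isoforms at 50% and 49% in amacrine cells, both ending at a last exon other than the one on top in Müller glia (89.6%). Impdh1, the inosine monophosphate dehydrogenase with known retinal isoforms, had 80.1% of amacrine counts on a 14-exon isoform that held 4.63% in rods. Further genes of the lists with a different dominant isoform included Slc12a5, Rims2, Syn3 and Slit2, each with 102 to 287 AC counts. In Rims2 and Slc12a5 the compared models did not overlap, and in Syn3 and Slit2 the amacrine model had fewer exons. The 10 largest differences, from 81.6 to 98.6 percentage points, were in Cacna2d4, Casz1, Eif3b, Alox5ap, Nav3, Sfxn5, Arhgap24, Tmem9, Fam149a and Wdr13. The structure of the amacrine isoform of Cacna2d4 was not known, and in Casz1 and Nav3 the compared models did not overlap. The amacrine model had 4 exons against 14 in Sfxn5, 4 against 10 in Wdr13 and 6 against 2 in Tmem9. Alox5ap rested on 108 AC counts. Eif3b, a subunit of a translation initiation factor, had 94.4% of amacrine counts on its 19-exon isoform, 44 of 44 in ganglion cells, 50.7% in Müller glia, 34.3% in bipolar cells, 28.8% in rods and 0.375% in cones. In cones, the highest column for this gene, a 4-exon model at the gene's 3′ end held 99.6%.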

How the data were processed

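The authors deposited a table of whole-number counts per isoform in 6 pooled cell class columns, used as deposited, and a set of transcript models. These models carry FLAIR, a long-read isoform builder, in their source field, per the file headers. The 5 comparison columns hold the same kind of deposited values as the AC column. Build mm10 is named per the submitters' processing notes; the counter, cell typing, doublet treatment and collapsing of reads to molecules are not given in the sources used here. Repeated reads of 1 molecule are therefore not excluded, and intervals and limits cover counting error only. Of 122601 deposited splice junctions, 115691 (94.4%) were in GENCODE M21, which gave symbols, exons, coding parts and sequences on GRCm38. The AC column held 48248340 counts and the ganglion cell column 3509890.

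Counts were summed per gene, and the AC CPM was divided by the mean CPM of the other 5 columns, each column at 0 entering as 0; where all 5 were at 0, the mean of their limits of 3 counts was used. Genes had at least 100 AC counts. Fold intervals join an exact Poisson interval for the AC count and a gamma interval for the weighted mean of the others, at 97.5% each, so at least 95% together, and shares have Clopper-Pearson intervals. Comparisons between libraries could not be made, since the columns name none of the 4 libraries, and no test was run. Named were the 6 markers, the 20 leading genes of highest AC level, the 10 largest ratios up (at least 1000 AC counts) and down (mean of the others at least 100 CPM), up to 5 higher and 3 lower members of each list, the 12 largest isoform differences and those in listed genes, 5 unannotated dominant isoforms, and the genes next to the minimum; others are said to be chosen later or are given to account for a list. The members and lists were chosen with earlier results of these data known. The rules were tested on simulated data. Results for some single genes of the lists are not reported here, though list counts include them. Alternatives were the scaling (TMM, edgeR 4.0.16; median of ratios, DESeq2 1.42.0), the minimums, thresholds, a pseudocount, equal depth, each comparison column left out, the median of the others, and isoforms with the same introns summed. Python 3.11.15, numpy 2.4.6, pandas 2.3.3, scipy 1.17.1, matplotlib 3.10.9 and R 4.3.3 were used.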

Additional observations from a re-analysis of the deposited data

How the results depend on the processing

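With 1 pooled column per class there is no replicate to leave out. No paired analysis was possible because the class columns carry no library or replicate number. Of 58 recomputed main values, 40 stayed close to the reported one and 18 moved, and a reversal was not defined for them. Closeness was judged on the size of a value, so the genes behind a close count can differ. Against the median of the other columns 860 genes were lower, of which 799 were among the 1237. The count of higher genes was 3119 with a minimum of 20 AC counts and 735 at 4-fold. That of lower genes was 2326 with the minimum of 20, 3302 with 100 counts over all columns and no AC minimum, and 468 at 4-fold, and leading genes numbered 201 at 4-fold. Different dominant isoforms numbered 553 at 25 percentage points, 777 with minimums of 20 counts and 50 with minimums of 500. Genes on 1 isoform numbered 2545 at 75% and 915 with 500 AC counts. These counts move because each setting admits more or fewer genes. The marker sum of 686 CPM was 667 CPM under TMM and 598 CPM under the median of ratios, and 413, 598, 678, 671 and 389 CPM without Tfap2b, Gad1, Gad2, Slc6a9 and Pax6.

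Single genes were recomputed in 1310 comparisons over 131 genes, and 19 comparisons in 13 genes reversed. Without the ganglion cell column the ratio was 17.0 for Calb2, 5.94 for Pvalb, 8.58 for Chrna6 and 1.57 for Vamp1. It was 4.23 for Cntn5 and 1.30 for Neurod4 without bipolar cells, and 2.61 for Sfxn5 without Müller glia. Against the median of the other columns it was 26.8 for Calb2, 1.16 for Fos, 1.52 for S100a10, 1.24 for Slc38a1, 4.94 for Pvalb, 1.26 for Eif3b, 3.47 for Cntn5, 12.3 for Chrna6, 1.87 for Sfxn5, 1.32 for Vamp1, 1.15 for Cntnap2 and 2.18 for Msi1. In each of these 13 genes except Slc38a1, 1 other column holds most of the mean. Of all 165 calls of a different dominant isoform, 112 were made again with the mean of the columns' own shares, and between 118 (rods) and 148 (ganglion cells) with 1 other column left out. Among the named genes alone, 104 of 107 such comparisons kept the call, but these include genes chosen for the largest differences, which favours keeping it. Depth limits the ganglion cell column most, where a count of 0 allows 0.855 CPM.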

Other observations

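Genes outside the lists were examined as families, chosen after their values were seen. The Kv channel-interacting proteins, calcium sensors that bind A-type potassium channels, differed among themselves. Kcnip1 was at 230 CPM in amacrine cells against at most 22.8 CPM elsewhere, in ganglion cells, 48.6-fold (95% interval 37.4 to 64.2) above the mean of the other columns. Kcnip2 was at 89.5 CPM and 16.4-fold above the mean with bipolar cells next, and Kcnip3 at 86.8 CPM and 21.2-fold with ganglion cells next. Kcnip4 was at 25.8 CPM in amacrine cells and 166 CPM in ganglion cells, 0.659 times the mean.

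The C1q-like proteins, secreted synaptic organizers, also divided. C1ql1 was at 62.8 CPM in amacrine cells and 112-fold above the mean, beside C1ql2 in the report, whereas C1ql3 had 5 AC counts and was at 23.5 CPM in rods and 22.3 CPM in cones. Among the related cerebellins, Cbln4 was at 53.0 CPM in amacrine cells and 7.12 CPM in ganglion cells, 35.7-fold (95% interval 22.3 to 60.3) above the mean. Cbln1 was at 3.09 CPM in amacrine cells and 2.85 CPM in ganglion cells.

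Tac2, the precursor of neurokinin B, was at 136 CPM in amacrine cells and 7.69 CPM in ganglion cells, 50.6-fold above the mean. Nhlh2, a basic helix-loop-helix transcription factor, was at 173 CPM and 6.27 CPM, 84.7-fold above it.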
